A study of Arabidopsis thaliana with 6 samples.

Results

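The miRNAs of the phosphate starvation response were followed in seedlings of the Arabidopsis thaliana mutant aar2-1 and of wild type (WT). They comprise the entries whose names carry the numbers miR399, miR827, miR2111 or miR778, taken by name with no threshold on their values. Of the 197 miRNA entries in each table, 9 met this rule, with 5 of miR399, 1 of miR827 and 3 of miR2111. They hold 11 of the 242 miRNA names, because miRNAs of identical mature sequence are listed as 1 entry. miR399b and miR399c-3p form 1 entry, called miR399b/c-3p here, and miR2111a-5p and miR2111b-5p form another, called miR2111a/b-5p. miR399e and miR778 are not analysed here.

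Small RNA was sequenced from whole seedlings aged 14 days, grown on 0.5-strength MS medium with 16 h of light and 8 h of dark. The mutant group holds 3 libraries of aar2-1, a mutant allele of AAR2, whose yeast and animal relatives help to assemble a spliceosome subunit, and the other group holds 3 WT libraries. The kind of lesion in aar2-1 is not given in the sources used here, and the tables hold miRNAs only, so the mutated gene has no value to check. MS medium supplies phosphate, and the labels name no phosphate treatment. Abundance is in RPM (reads scaled to a common library size), and 1 read was worth 0.0868 to 0.142 RPM in aar2-1 and 0.103 to 0.118 RPM in WT. The 197 entries summed to 22297.1 ± 4808.0 RPM in aar2-1 and 50742.2 ± 3865.9 RPM in WT (SD, n = 3 each), so every miRNA below is seen against a table whose total was 2.28-fold lower in the mutant. Whole seedlings were used, so fewer cells that make a miRNA and less of it per cell cannot be told apart.

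Plants short of phosphate raise these miRNAs through the transcription factor PHR1, which binds the P1BS motif in the promoters of phosphate starvation genes. miR399 travels in the phloem from shoot to root and guides cleavage of the transcript of PHO2, an E2 ubiquitin-conjugating enzyme that keeps phosphate transporters in check. miR827 acts on the transcript of NLA, a ubiquitin ligase that removes phosphate transporters from the plasma membrane. miR2111 moves from shoot to root as well, which is best known from Lotus japonicus, where it targets the nodulation regulator TML; in Arabidopsis its predicted target is the F-box gene AT3G27150. The target transcripts were not measured here.

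The mature sequences are shown because they decide which entries can share reads and which target sites they can pair with. They were read from the TAIR10.1 genome at the positions of its RefSeq annotation, written 5′ to 3′, with the seed (bases 2 to 8) in capitals.
miR399b/c-3p: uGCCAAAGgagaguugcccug
miR399a: uGCCAAAGgagauuugcccug
miR399d: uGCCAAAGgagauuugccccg
miR399f: uGCCAAAGgagauuugcccgg
miR399c-5p: gGGCAUCUuucuauuggcagg
miR827: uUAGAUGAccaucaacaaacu
miR2111a/b-5p: uAAUCUGCauccugagguuua
miR2111a-3p: gUCCUCGGgaugcggauuacc
miR2111b-3p: aUCCUCGGgauacaguuuacc

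The 4 miR399 entries of the 3p arm share 1 seed, which no other entry of the table carries. Counted from 1 at the 5′ end, miR399a differs from miR399b by G13U alone, miR399d by G13U and U20C, and miR399f by G13U and U20G. With so few differences, reads with sequencing errors or end trimming could pass between these entries, so their separate values are less certain than their sum. The 3p arms of miR2111 share a seed and differ by G1A, G12A, G14A and A16U from miR2111a to miR2111b. All 9 entries are 21 bases long, as are 77.7% of the 197 entries. Of the 9, 6 begin with U, against 60.4% of all entries. The exceptions are miR399c-5p and both miR2111 3p entries, the arms opposite those known as guides.

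The entries come from 8 annotated hairpins, none of which has another gene on its own strand over the mature sequence. On TAIR10.1 the precursors are MIR399a at chr1:10227073-10227195 (plus strand), MIR399b at chr1:23345377-23345511 (minus), MIR399c at chr5:24962485-24962598 (plus), MIR399d at chr2:14442978-14443077 (minus) and MIR399f at chr2:14444997-14445114 (plus). MIR399d, MIR399e and MIR399f lie within 2137 bases of each other. MIR827 is at chr3:22122760-22122936 (minus), MIR2111a at chr3:2854284-2854442 (plus, opposite the lncRNA gene AT3G02155) and MIR2111b at chr5:400358-400524 (plus). The mature sequences of miR399b/c-3p and miR2111a/b-5p each match 2 places in the genome, which are their 2 hairpins, and the reads cannot be divided between them.

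The target transcripts were searched for sites that pair with these sequences, without gaps, with a penalty of 1 for a mismatch and 0.5 for a G:U pair, counted 2 times opposite bases 2 to 13, and a limit of 4. The PHO2 transcript (AT2G33770) held 5 such sites for miR399 in its 5′ UTR. For miR827, 1 site was found in the 5′ UTR of NLA (AT1G02860), and for miR2111, 1 site in the coding sequence of AT3G27150. They are shown to set the members side by side, with the bases opposite the seed in capitals.
PHO2 chr2:14282106-14282126, minus strand: tagggcaaatcttCTTTGGCa
PHO2 chr2:14281973-14281993, minus strand: tagggcatatctcCTTTGGCa
PHO2 chr2:14281884-14281904, minus strand: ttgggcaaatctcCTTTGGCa
PHO2 chr2:14281827-14281847, minus strand: tcgagcaaatctcCTTTGGCa
PHO2 chr2:14281770-14281790, minus strand: tagagcaaatctcCTTTGGCa
NLA chr1:635401-635421, plus strand: tgtttgttgatggTCATCTAa
AT3G27150 chr3:10010764-10010784, minus strand: gaaacctaaggatGCAGATTa

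All 5 PHO2 sites pair with every base of the miR399 seed. At each of them the abundant miR399b/c-3p has 1 mismatch more than miR399a, with penalties of 3.5 to 4.5 for miR399b/c-3p and 1.5 to 2.5 for miR399a. At the site at 14281827 miR399b/c-3p, with 4.5, is past the limit of 4. miR399a pairs with the site at 14282106 and miR399f with the site at 14281884 with 0 mismatches and 2 G:U pairs. miR827 has 1 mismatch at its NLA site, and miR2111a-5p has 2 at its AT3G27150 site. Pairing is a description of the letters and says nothing of cleavage in these seedlings.

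The P1BS motif GNATATNC, which reads the same on both strands, was searched in the 1000 bases upstream of each annotated precursor. These starts are hairpin starts, not transcription starts. Of the 8 hairpins, 6 had at least 1 match, all of them MIR399 or MIR827, against 24.5% of the 326 MIR genes of the annotation. The matches nearest to the hairpin are shown for 3 genes, with the motif in capitals; the MIR827 window also holds, in small letters, the match that begins 84 bases before the hairpin.
MIR399a chr1:10226983-10227012, plus strand: attgtaccgtgGAATATGCttctttccaag
MIR399f chr2:14444902-14444931, plus strand: atagtgccattGAATATGCttattgcaatg
MIR827 chr3:22122991-22123020, minus strand: gaatatccataGAATATTCttgtctggatt
The motif began 79 bases before the MIR399a hairpin, 84 before MIR399f and 73 before MIR827, and MIR827 had 3 matches within 96 bases. MIR2111a and MIR2111b had no match in this window.

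**Figure D1:**
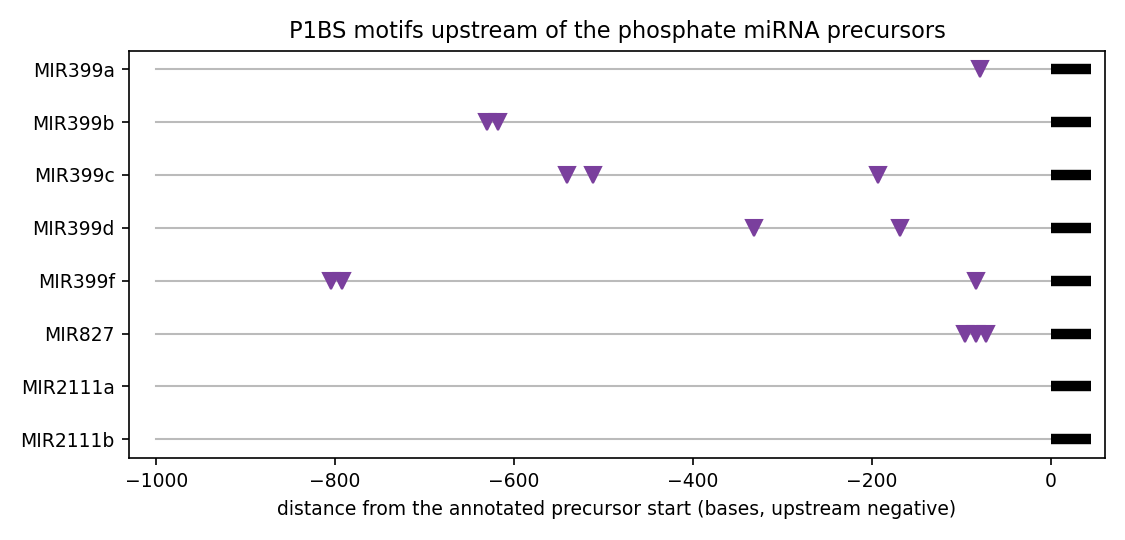
Matches of GNATATNC (triangles) in the 1000 bases upstream of the 8 hairpins, as the distance in bases from the annotated precursor start (black blocks). MIR399c, MIR399f and MIR827 had 3 matches each, and the 2 MIR2111 genes had none in the window.

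The abundances were compared between the genotypes to ask whether these miRNAs accumulate differently in aar2-1. All 9 entries were lower in the mutant, and in each of them every aar2-1 library lay below every WT library. Over all 197 entries, 50.8% showed such a separation in the same direction. The decrease of the mean RPM was 3.04-fold to 7.42-fold, where the median over the 69 entries of at least 10 RPM was 2.03-fold. Of the 9, only miR399b/c-3p (4.78-fold) and miR827 (7.42-fold) average that much, so the median is of more abundant entries than the rest. The test was limma on log2(RPM + 1), run on entries averaging 1 RPM or more across all 6 libraries. Of the 9, 7 passed this filter. Among the 7, miR399c-5p, miR399d, miR399f and miR2111b-3p passed only through their WT values, so their call follows in part from the filter. All 7 fell at an adjusted p of 0.05, a call that 61.1% of the 131 tested entries shared. Without the filter, all 9 fell, against 46.2% of 197 entries.

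**Figure D2:**
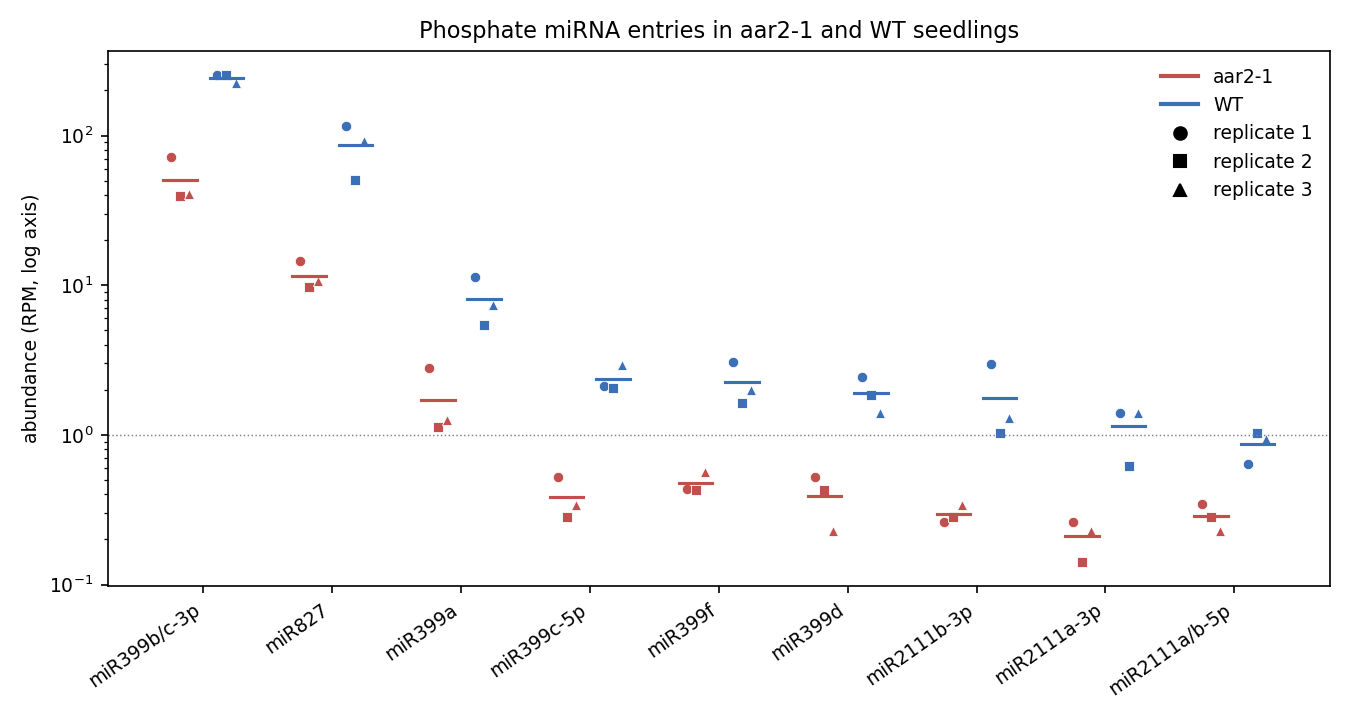
Abundance of the 9 entries in each library in RPM on a log axis, with aar2-1 left of WT, symbols for the replicates and bars for the means; the dotted line marks 1 RPM. The aar2-1 points lie below the WT points for every entry, from miR399b/c-3p at 39.6 to 71.9 RPM against 222.8 to 253.4 RPM to miR2111a/b-5p at 0.227 to 0.347 RPM against 0.640 to 1.03 RPM.

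The miR399 entry miR399b/c-3p was the most abundant of the phosphate miRNAs. It had 71.9, 39.6 and 40.9 RPM in aar2-1 replicates 1 to 3 and 253.4, 253.1 and 222.8 RPM in WT replicates 1 to 3. The WT libraries lay close together and replicate 1 was the highest of the mutant, yet below each WT library by a wide margin. The means were 50.8 ± 18.3 RPM in aar2-1 and 243.1 ± 17.6 RPM in WT (SD, n = 3 each), 4.78-fold lower in the mutant. The log2 fold change was -2.29 (SE 0.31, limma adjusted p 2.33e-05), which ranked 6 by decrease among the 131 tested entries.

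miR399a, which differs by 1 base, followed at a lower level. Its values were 2.78, 1.13 and 1.25 RPM in aar2-1 and 11.4, 5.43 and 7.41 RPM in WT. Replicate 1 was the highest library in both genotypes, and the genotypes did not overlap. The decrease was 4.70-fold, or -1.74 on the log2 scale (SE 0.32, limma adjusted p 2.76e-04). By pooled reads it was 4.33-fold, and 6.74-fold without aar2-1 replicate 1.

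miR399d and miR399f, from the cluster on chromosome 2, were found in few reads. miR399d had 6, 3 and 2 reads in aar2-1 and 23, 18 and 12 reads in WT. miR399f had 5, 3 and 5 reads in aar2-1 and 29, 16 and 17 reads in WT. For both, the mutant libraries stood within 3 reads of the floor of 3 reads, and aar2-1 replicate 3 of miR399d lay below it. That floor is a mark of low counts, and no value was removed by it. By pooled reads over the pooled denominators, miR399d was 4.78-fold lower (95% exact interval 2.47 to 10.1) and miR399f 4.73-fold lower (2.57 to 9.37). These intervals cover counting error only. On the log2 scale, which compresses values near 1 RPM, the changes were -1.05 (SE 0.22, limma adjusted p 8.12e-04) for miR399d and -1.11 (SE 0.23, limma adjusted p 7.04e-04) for miR399f. Both entries passed the filter only through their WT values. Without the filter the limma adjusted p-values were 0.00143 for miR399d and 0.00152 for miR399f.

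By mean RPM the 4 entries of the guide arm thus decreased by similar factors, from 4.70-fold for miR399a to 4.87-fold for miR399d. By pooled reads the factors ran from 4.33-fold for miR399a to 4.78-fold for miR399d. Their levels in WT ran from 1.90 to 243.1 RPM. The pooled intervals of miR399d (2.47 to 10.1) and miR399f (2.57 to 9.37) are too wide to tell how alike the factors are. No test across libraries was made between the entries. The make-up of the miR399 family was accordingly close between genotypes. miR399b/c-3p made up 94.5% ± 0.1 of the family RPM in aar2-1 and 94.3% ± 1.4 in WT, and miR399a 3.08% ± 0.497 in aar2-1 and 3.13% ± 1.07 in WT (SD, n = 3 each). The summed family had 53.8 ± 19.4 RPM in aar2-1 and 257.7 ± 18.8 RPM in WT. Tested with all families, its log2 fold change was -2.29 (SE 0.32, limma adjusted p 1.12e-04); 59.2% of the 76 tested families fell by this test.

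The opposite arm was measured for MIR399c only. miR399c-5p had 6, 2 and 3 reads in aar2-1 and 20, 20 and 25 reads in WT, or 0.382 ± 0.124 RPM in aar2-1 and 2.37 ± 0.491 RPM in WT (SD, n = 3 each). The pooled decrease was 5.86-fold (95% exact interval 3.07 to 12.3), or -1.28 on the fitted log2 scale (SE 0.21, limma adjusted p 1.35e-04). This entry passed the filter only through its WT values, and without the filter its limma adjusted p was 3.43e-04. As a share of the reads of both arms, in which the 3p reads include those of MIR399b, the 5p arm held 0.719%, 0.709% and 0.826% in aar2-1 and 0.835%, 0.804% and 1.30% in WT. The genotypes overlapped, with a difference of -0.229 percentage points on 11 reads of the 5p arm in aar2-1 in all. A two-sided exact permutation test gave p = 0.20. With 3 against 3 it can give no less than 0.10, so it could not have made a call. The exact binomial intervals of single libraries, such as 0.086% to 2.54% in aar2-1 replicate 2 and 0.511% to 1.29% in WT replicate 1, are wide beside that difference.

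miR827 had the largest decrease of the phosphate miRNAs. Its values were 14.5, 9.77 and 10.7 RPM in aar2-1 and 116.1, 50.7 and 92.4 RPM in WT, from 69 to 167 reads and 495 to 1088 reads. WT varied more than for miR399b/c-3p, with a coefficient of variation of 38.3% for miR827 and 7.24% for miR399b/c-3p, and its lowest library still lay far above the highest of the mutant. The change of -2.73 on the log2 scale (SE 0.35, limma adjusted p 1.89e-05) ranked 3 by decrease among the tested entries. By pooled reads the interval was 6.34 to 8.01 around 7.12-fold, above the interval of miR399b/c-3p, 4.30 to 4.81 around 4.55-fold. Both cover counting error only. Leaving out 1 library at a time moved the pooled decrease from 5.82-fold to 8.70-fold for miR827 and from 4.09-fold to 6.05-fold for miR399b/c-3p, ranges that overlap, and no test across libraries was made of the difference between the entries.

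**Figure D3:**
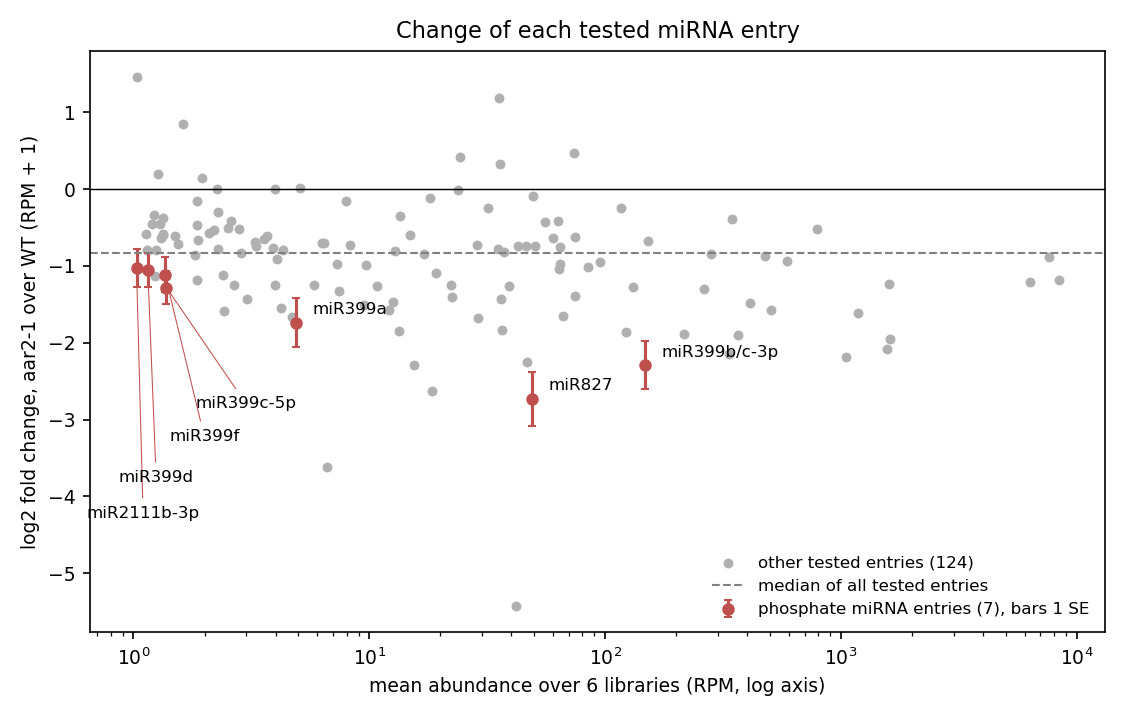
Log2 fold change (aar2-1 over WT, RPM + 1) of the 131 tested entries against their mean RPM on a log axis; the 7 tested phosphate entries are red with bars of 1 SE, and the dashed line is the median of all tested entries, -0.83. miR827 at -2.73 and miR399b/c-3p at -2.29 lie near the lower edge, while the entries near 1 RPM, where the scale compresses changes, lie between -1.03 and -1.28.

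miR2111 was scarce in both genotypes. The guide strand, miR2111a/b-5p, had 4, 2 and 2 reads in aar2-1 and 6, 10 and 8 reads in WT. Of the 3p strands, miR2111b-3p had 3, 2 and 3 reads in aar2-1 and 28, 10 and 11 reads in WT. For miR2111a-3p the counts were 3, 1 and 2 reads in aar2-1 and 13, 6 and 12 reads in WT. The mutant libraries were thus near or below the floor of 3 reads for each of the 3 entries, and the pooled folds are loose. They were 2.97-fold lower for miR2111a/b-5p (95% exact interval 1.29 to 7.66), 6.07-fold for miR2111b-3p (2.85 to 14.8) and 5.12-fold for miR2111a-3p (2.11 to 15.0). WT replicate 1 gave 28 of the 49 WT reads of miR2111b-3p, and without it the pooled decrease of that entry was 3.94-fold. With all entries fitted and no filter, the log2 fold changes were -0.53 (SE 0.15, limma adjusted p 0.0125) for miR2111a/b-5p and -0.80 (SE 0.18, limma adjusted p 0.00405) for miR2111a-3p. In the same fit miR2111b-3p changed by -1.03 (SE 0.24, limma adjusted p 0.00431). It was the one miR2111 entry above the filter, which it passed only through its WT values. With the filter its limma adjusted p was 0.00211, a call that follows in part from the filter.

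Summed over its entries, miR2111 had 0.868, 0.708 and 0.795 RPM in aar2-1 and 5.01, 2.67 and 3.64 RPM in WT, 4.78-fold lower. The family fell by 1.39 on the log2 scale (SE 0.23, limma adjusted p 3.01e-04), and it too passed the filter only through WT. The 5p arm held 40.0%, 40.0% and 28.6% of the miR2111 reads in aar2-1 and 12.8%, 38.5% and 25.8% in WT, so the 2 entries of the 3p arm, usually counted as the passenger, together outnumbered the guide in every library. The share was 10.5 percentage points higher in aar2-1, on 8 reads of the 5p arm in all, and the genotypes overlapped (two-sided exact permutation p = 0.20). With 3 libraries against 3 that test cannot go below 0.10 at any depth, so it could not have made a call.

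Most miRNAs of the table fell in aar2-1, so the change of the phosphate miRNAs was also set against that common shift. Dividing each library by 1 factor, the median ratio over the 53 entries of at least 10 RPM in every library, raised the median log2 fold change of the tested entries by 0.74, to -0.09. On that scale 26.7% of entries were lower past the threshold, and the 7 tested phosphate entries were among them. miR827 was lower by -1.82 (SE 0.25, limma adjusted p 4.91e-07), miR399b/c-3p by -1.35 (SE 0.22, limma adjusted p 6.62e-06) and miR399a by -1.03 (SE 0.25, limma adjusted p 0.0015). The 4 entries near 1 RPM ran from -0.83 to -0.61, with limma adjusted p-values from 0.00391 to 0.0322. These 4 had passed the filter only through their WT values, before the factor was applied, so their calls again follow in part from the filter. When each library was instead centred on its median log2 value, which raised the median of all entries by 1.35, to 0.52, only miR827 (-1.39) and miR399b/c-3p (-0.95) of the 7 passed as lower, and miR399c-5p, miR399d, miR399f and miR2111b-3p turned to values of 0.06 to 0.31 that did not pass. On that scale 9.16% of the 131 entries were lower past the threshold. After quantile normalization 4 of the 7 passed as lower, beside 12.2% of the 131. With the values as deposited and the filter raised to 10 RPM, miR827 and miR399b/c-3p were the entries left to test, and both fell, beside 63.8% of 69.

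Shares of all miRNA RPM scale each library by its own miRNA total, in which miR159b-3p and miR158a-3p weigh most. By this measure the miR399 family made up 0.237% ± 0.0366 in aar2-1 and 0.511% ± 0.0615 in WT. miR827 made up 0.0524% ± 0.00545 in aar2-1 and 0.168% ± 0.0548 in WT, and miR2111 0.00362% ± 0.000617 in aar2-1 and 0.00737% ± 0.00188 in WT (SD, n = 3 each). For each of the 3 families, the highest mutant library lay below the lowest WT library, a separation shown by 16.4% of the 116 families as shares.

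The libraries of a genotype also differed among themselves. In aar2-1, replicate 1 was the highest library for 7 of the 9 entries, all but miR399f and miR2111b-3p, and it had the largest miRNA total, 27680.5 RPM, beside 20780.8 and 18430.1 RPM. In WT, replicate 2 was the lowest library for 6 of the 9 entries, among them miR827, miR399a and miR399f, and it had the smallest total, 46281.9 RPM, beside 53127.3 and 52817.4 RPM. For miR399b/c-3p in WT, replicate 3 was the lowest. The part of the totals in these differences was not tested.

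**Figure D4:**
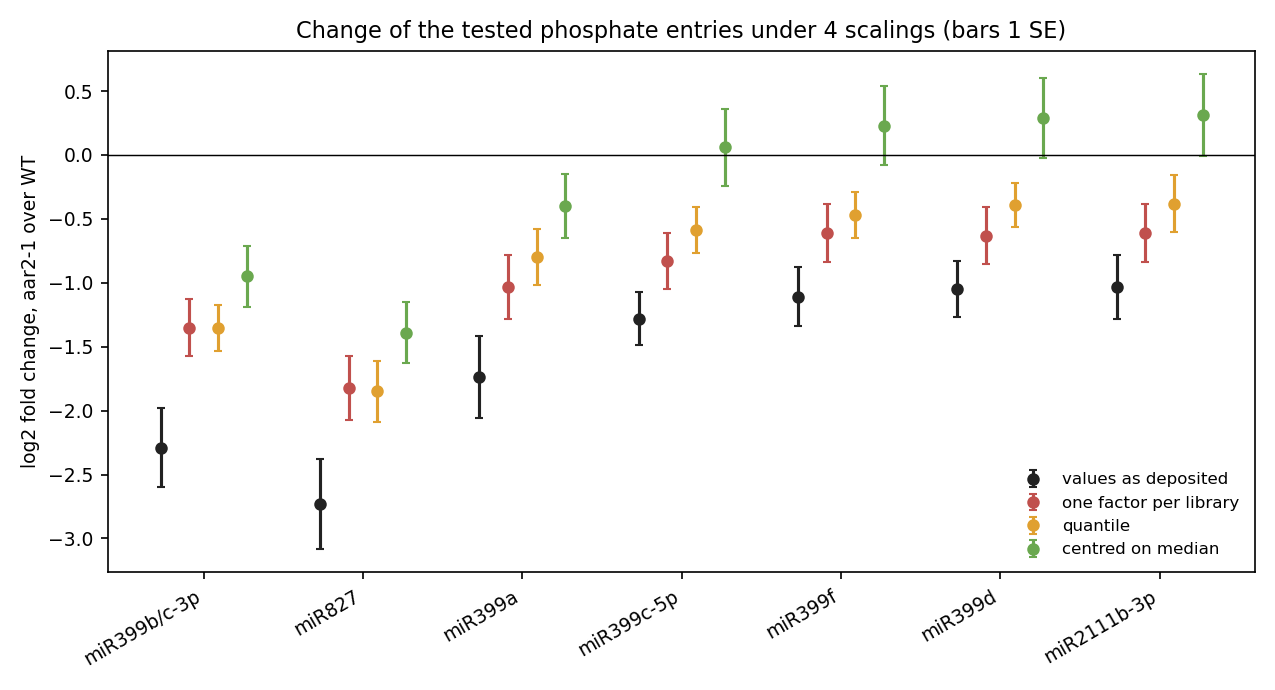
Log2 fold change (aar2-1 over WT) of the 7 tested phosphate entries with the values as deposited and under 3 scalings meant to take out the common shift, with bars of 1 SE. Centring on the median went past that shift, leaving the median of all tested entries at 0.52. miR827 and miR399b/c-3p are below 0 under all 4, down to -2.73 and -2.29 as deposited, while the entries near 1 RPM cross 0 under centring on the median.

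Other miRNA families known to respond to phosphate supply in Arabidopsis, or to sulfate or copper, were read from the same fit. miR156, a regulator of SPL factors and known to rise without phosphate, and miR169, miR395 and miR398, known to fall, all fell in aar2-1: 4 of 4 tested, with a median log2 fold change of -1.23, beside 59.2% and a median of -0.86 over all 76 families. After the factor per library, 2 of the 4 were lower past the threshold, beside 30.3% of all families: miR395 at -0.93 (limma adjusted p 0.00727) and miR398 at -0.61 (limma adjusted p 0.0132). miR156 at 0.05 and miR169 at 0.10 did not pass, with limma adjusted p-values of 0.832 and 0.775. miR398, which targets copper superoxide dismutases and had the largest mean of this list, had 637.4 ± 151.0 RPM in aar2-1 and 1871.8 ± 429.0 RPM in WT (SD, n = 3 each), 2.94-fold lower. miR395, which targets ATP sulfurylases and a sulfate transporter, had 143.6 ± 24.7 RPM in aar2-1 and 530.2 ± 79.1 RPM in WT, 3.69-fold lower. Of the 4 copper families, miR398 and miR408 fell, with miR408 at -1.68 on the log2 scale (limma adjusted p 2.65e-04), while miR397 (-0.57, limma adjusted p 0.228) and miR857 (-0.64, limma adjusted p 0.0950) did not pass. The 3 phosphate families had a median of -2.29, and -1.35 after the factor per library, beside -0.07 over all families; no test compared the lists.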

How the data were processed

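The submitters' processing notes name cutadapt, Bowtie and the TAIR10 build; their versions, the miRNA registry release, the make-up of the denominator and the handling of multiply matching reads are not given in the sources used here. The authors deposited 1 table per library in RPM, a unit inferred from the values: dividing each value by the smallest value above 0 of its library, taken as 1 read, gave a whole number within 0.02 for 1182 of 1182 values. The implied denominators were 7062198 to 11524176 reads in aar2-1 and 8505555 to 9754859 reads in WT. Read numbers, and the intervals built on them, come from these steps and assume that the smallest value is 1 read.

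Groups and replicate numbers come from the sample titles; the series text calls the replicates biological. The values were used as deposited, in limma 3.58.1 (R 4.3.3) on log2(RPM + 1), genotype as the only factor, with a variance trend, two-sided, Benjamini-Hochberg adjustment over all tested entries or families, and a threshold of 0.05. A family sums the entries with 1 miR number, taking the first name of a joined entry. The fit was tested on simulated data with known changes in 36 of the 197 entries per set, in both directions. The number of sets was raised after a run with fewer sets exceeded the limit set for false calls. These sets held no common shift like that of the real data, so the simulation does not cover that case. They also gave every entry the same spread between libraries, which was not fitted to these data. No conclusion about the calls is drawn from the simulation. Arm shares used exact permutation tests. Every entry of the chosen families is named, and the other lists were written down as families; members, lists and tests were chosen with earlier results of these data known. Count models had been planned as alternatives and were not run, since each table holds fewer low values than the stricter check set for fitting such models needs. Python 3.11.15, pandas 2.3.3, numpy 2.4.6, scipy 1.17.1 and matplotlib 3.10.9 were used.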

Additional observations from a re-analysis of the deposited data

How the results depend on the processing

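The 3 families passed as lower under every alternative run except the filter at 10 RPM, where 2 were tested and 2 passed, and centring on the median, where miR2111 did not (-0.29, limma adjusted p 0.339). Of the 76 tested families, 59.2% were lower with the values as deposited and 30.3% after the factor per library. Apart from the fits without 1 library, that share was not counted for the other alternatives. The count of member families there cannot be set against the common fall. The miR2111 family passed the 1 RPM filter only through WT. The number of phosphate entries past the threshold, 7 as reported, was 2 with the filter raised to 10 RPM, where only 2 could be tested, 2 after centring on the median (9.16% of all entries lower) and 4 after quantile normalization (12.2%), 9 of 9 without a filter (46.2%), and 7 under each other alternative (26.7% to 80.2%). Among the 7, miR399c-5p, miR399d, miR399f and miR2111b-3p passed the 1 RPM filter only through WT. Centring turned the change positive for miR2111b-3p (0.31), miR399d (0.29), miR399f (0.23) and miR399c-5p (0.06) and left miR399a at -0.40; it subtracts 1 constant from log2(RPM + 1), which also moves entries near 0 RPM. Quantile normalization left miR2111b-3p (-0.38), miR399d (-0.39) and miR399f (-0.47) without a call. Leaving out 1 library at a time kept 7 entries and 3 families, with miR827 from -3.07 to -2.48 and miR399b/c-3p from -2.56 to -2.14. In those fits 59 to 105 of the 131 tested entries and 33 to 61 of the 76 tested families were lower. The 5p arm differences ran from -0.317 to -0.0679 percentage points for MIR399c and from 4.06 to 16.9 for miR2111. With the replicate number as a block, 3 families passed, with the share of all families not counted. In that fit 7 entries passed, beside 72.5% of the 131 tested entries lower. Each replicate number occurs once per genotype, so fold changes cannot move. Same-numbered libraries deviated together for number 1 only (correlations of 0.49, 0.05 and -0.15). The labels do not say whether the numbers match samples, and 3 such correlations cannot decide it. The exact sign-flip test of the arm shares cannot give a p under 0.25. Pooled folds without 1 library, chosen after seeing the data, moved by over 1.5 times for miR2111b-3p (3.94-fold without WT replicate 1) and miR399a (6.74-fold without aar2-1 replicate 1). The edgeR and DESeq2 alternatives were not run. Depth limits miR399d, miR399f, miR399c-5p and miR2111, with 1 to 6 reads in each mutant library.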

Other observations

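Among the 73 other tested families, the levels most like those of miR399 over the 6 libraries, by Pearson's r of log2(RPM + 1), were those of miR165 (0.999), miR162 (0.999) and miR166 (0.998). miR165 and miR166 target HD-ZIP III transcripts and miR162 targets DCL1. miR162 had 385.6 ± 104.0 RPM in aar2-1 and 1721.0 ± 88.0 RPM in WT, and miR165 had 136.2 ± 37.2 RPM in aar2-1 and 575.7 ± 58.4 RPM in WT (SD, n = 3 each). For miR827 they were miR163 (0.993), miR319 (0.992) and miR847 (0.983), and for miR2111 miR841 (0.978), miR163 (0.977) and miR847 (0.974). miR163 had 199.9 ± 19.8 RPM in aar2-1 and 360.6 ± 53.1 RPM in WT. miR847 was scarce, with 0.392 ± 0.28 RPM in aar2-1 and 2.07 ± 0.722 RPM in WT. miR841 had 0 RPM in every aar2-1 library and 2.28 ± 0.339 RPM in WT, so its r follows mostly from the difference between the genotypes. These values are a description: the libraries share the genotype shift, and the median r over the 73 families was 0.890 for miR399, 0.872 for miR827 and 0.851 for miR2111.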
